A study of Mus musculus with 10 samples.

Results

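NFAT5 (nuclear factor of activated T cells 5, also called TonEBP) and 6 genes tied to the osmotic stress response were followed in primary cortical cultures. Separate cultures with and without KCl were compared. The set comprised Nfat5, the osmolyte handling genes Slc5a3, Slc6a6, Slc6a12 and Akr1b3, the amino acid transporter gene Slc38a2 and the kinase gene Sgk1. Members were taken by gene symbol, with every Ensembl transcript of each symbol that had counts. This gave 12 transcripts of 5 of the 7 genes, of 22172 annotated transcripts of 13184 genes in the series. Slc5a3 and Akr1b3 were not analysed here. The members were chosen by their RNAseq, RF and TE responses to KCl in these same libraries, which were known when the set was put together, so their KCl values are given as a description, without a test.

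Cells with too much salt around them lose water, and over hours they replace inorganic ions with small organic osmolytes such as inositol, taurine, betaine and sorbitol. NFAT5 is the transcription factor that drives much of this switch: it binds a DNA element named TonE (tonicity-responsive enhancer) beside genes for osmolyte transporters and for aldose reductase, the enzyme that makes sorbitol. Unlike the calcineurin-dependent NFATc factors, NFAT5 lacks the calcineurin docking region. In brain, taurine and inositol are major osmolytes of neurons and astrocytes.

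The cultures came from cortex of newborn (P0) FVB mice, held neurons and glia together, and were kept for 7 days in vitro. Cultures 1 to 3 were left untreated, and cultures 4 and 5 received KCl to a final 55 mM for 3 h. All cultures had cycloheximide for 7 min before harvest, which stalls ribosomes on mRNA. From each lysate came an RNAseq library, which measures transcript abundance, and a ribosome footprinting (RF) library, which measures the mRNA fragments that ribosomes protect. Translation efficiency (TE) is the ratio of RF on the coding sequence (CDS) to RNAseq. According to the study's methods a further KCl replicate had been taken out for low library size. Added KCl depolarizes neurons and also raises the osmolarity of the medium. No group here received an osmotic control, so depolarization and osmolarity cannot be told apart.

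RNAseq libraries held 3056286 to 3629959 reads and RF libraries 1463654 to 7719915, the fewest in RF of untreated culture 3 (1463654) and KCl culture 4 (1608235). Of the transcripts, 7262 of 4369 genes were measured. This means that 2 or more cultures each had at least 10 RPKM in RNAseq and in RF. RPKM is reads scaled by library size and by length, of the transcript in RNAseq and of the CDS in RF. Fos, an immediate early gene of depolarized neurons, rose by 1.59 on the log2 scale in RNAseq and by 2.33 in RF. Summed markers of astrocytes were 10738 to 11942 normalized CPM (counts scaled by library size) in untreated RNAseq and 9292 to 9729 with KCl. In RF these sums were 17626 to 18126 and 19135 to 19629. Of these markers, Aqp4 and Slc1a3 alone lay lower with KCl in RNAseq, and Gfap, Aldh1l1, Aldoc and Gja1 overlapped. Gfap, the highest of them, also overlapped in RF, where the other astrocyte markers lay higher with KCl. Summed markers of neurons overlapped between the groups in RNAseq (452 to 647 and 558 to 566) and lay higher with KCl in RF (373 to 552 and 561 to 615). Of the 3 measured neuron markers, Snap25 alone lay apart in RF, and Tubb3 and Stmn2 overlapped. No marker was at 0 in every library. In such bulk samples, fewer cells of a type and less RNA per cell cannot be told apart, and the part of cell makeup in the values below was not tested.

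Start codon surroundings of the members are shown first, since RF counts ribosomes on these transcripts. Each line reads 5′ to 3′ on the mRNA sense strand, with the annotated start codon in capitals, from GRCm38 transcripts.
Nfat5: ggtcgagctgcgATGccctcggacttc
Nfat5, ENSMUST00000077440 with another first exon: tcctcttcctccATGggcggtgcttgc
Slc38a2: ctcccgagcagcATGaagaagaccgaa
Slc6a6: caaaacgaagagATGgccacgaaggag
Slc6a12: ctttagatagaaATGtcatcaagagct
Sgk1: ggcatcgggacgATGaccgtcaaagcc

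The leading transcript of each gene, the one with the most RNAseq reads, had an A or G 3 bases before the start codon in 5 of 5 members, as did 86.0% of measured transcripts. The 5′UTR of Nfat5 was 356 bases long with 71.6% G and C and held no upstream ATG. That of Slc38a2 was 410 bases long and held none either, at a lower 54.4% G and C. That of Sgk1 was short, at 84 bases, and held none. Other transcripts differed: Sgk1 ENSMUST00000120509 held 5 in 455 bases, ENSMUST00000164659 held 3 in 316 bases, and its remaining transcripts held none. Nfat5 ENSMUST00000077440 held 1 in 31 bases, and the remaining Nfat5 transcripts held none. Measured transcripts had a median 5′UTR of 175 bases with 65.1% G and C, and 50.4% held at least 1 upstream ATG. Slc6a6 held 2 in its 311 bases and Slc6a12 held 1 in its 354 bases. In Slc6a6 the first of them opened a reading frame that runs past the start codon of the CDS, and the second closed within the 5′UTR. Both are shown in capitals, as is the one of Slc6a12, whose frame also closed before the CDS.
Slc6a6, 271 bases upstream: cccagcaggATGggtgatgcg
Slc6a6, 264 bases upstream: ggatgggtgATGcggagagct
Slc6a12, 168 bases upstream: cgagctataATGgggttttaa

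Promoters of the members were searched for the TonE consensus by name, on both strands, in RefSeq windows of GRCm38.p6 from 250 bases before to 50 after each gene start. Of the 7 members 5 were in the promoter table, and Slc6a6 and Akr1b3 were not. Nfat5 held matches in its 1 promoter and Slc6a12 in 2 of its 5 promoters. Both Slc6a12 matches lie at starts upstream of 121346618, where its transcript with counts begins, and outside the window of that start. Slc5a3 and Slc38a2 with 1 promoter each and Sgk1 with 6 held none. Over all genes the consensus was found in 23.0% of 32851 promoters, so a match is common. The matches are in capitals below and all sequences are of the plus strand, with the Nfat5 matches read on the minus strand.
Slc6a12, chr6:121342491-121342517: gtacttggTGGAAAACTCCagtctgtg
Slc6a12, chr6:121343419-121343437: gatggatcTGGAACTACCT
Nfat5, chr8:107293393-107293419: cggccgccAGGCTCTTCCGggctcccg
Nfat5, chr8:107293351-107293377: ccttgttgATGCTGTTCCGtggcgcgc

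The shorter core TGGAAA lies inside the first Slc6a12 match. It was also found in 2 of the 6 Sgk1 promoters, neither of them at the start of the leading Sgk1 transcript, and in 21.4% of all promoters.

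Nfat5 carried the largest difference in ribosome occupancy among the members. Its leading transcript (ENSMUST00000169453) lies on chromosome 8 from 107293470 to 107379516 of GRCm38, plus strand, in 15 exons, with 4656 bases of CDS and a long 3′UTR of 8368 bases. RNAseq of Nfat5 was 92.6, 63.2 and 69.5 normalized CPM in untreated cultures 1 to 3 and 266 and 240.0 in KCl cultures 4 and 5. The groups did not overlap, and the lower KCl culture stood well above the highest untreated one. The mean was 75.1 ± 15.5 CPM (SD, n = 3) untreated and 253 ± 18.3 (SD, n = 2) with KCl, and the fitted log2 difference was 1.75 (SE 0.15).

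RF on the Nfat5 CDS was 24.9, 27.4 and 36.5 normalized CPM in the untreated cultures and 301 and 336 with KCl. The gap between the groups was wider than in RNAseq, and both KCl cultures were far above every untreated one. Means were 29.6 ± 6.10 CPM (SD, n = 3) and 319 ± 24.4 (SD, n = 2), which the fit gave as 3.53 on the log2 scale (SE 0.13). Among the 4236 genes whose leading transcript was measured, this was the rank 3 difference from the top in RF, against rank 52 in RNAseq.

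TE of Nfat5, the ratio of RF to RNAseq, was 0.734, 1.18 and 1.38 in the untreated cultures and 3.03 and 3.69 with KCl. The KCl cultures lay apart from the untreated ones here too, so RF differed by more than transcript abundance did. The log2 fold change of TE was 1.75 (SE 0.22), again rank 3 of the 4236 genes. All 4 Nfat5 transcripts with counts gave like values (1.74 to 1.92 in RNAseq, 3.52 to 3.71 in RF and 1.57 to 1.95 in TE), but they share most of their exons and the authors kept reads on every transcript, so they are not separate measurements.

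In the untreated cultures Nfat5 was low per length, at 4.45 ± 0.891 RNAseq RPKM and 4.72 ± 0.895 RF RPKM (SD, n = 3), against medians of 21.5 and 37.5 over measured transcripts. These levels are under the minimum of 10 RPKM, so Nfat5 was measured only through the KCl cultures, where it is high. A member that enters in this way had to differ between the groups.

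Reads of Nfat5 by region are a second view of the same cultures. RNAseq reads on the CDS were 91, 68 and 65 untreated and 284 and 281 with KCl, a 3.72-fold difference in mean CPM. On the 3′UTR they were 146, 94 and 102 and then 358 and 362, which is 3.10-fold. Both parts of the mRNA therefore stood higher with KCl, by a similar factor. RF reads on the CDS were 144, 135 and 39 untreated and 339 and 724 with KCl, 10.8-fold in CPM. On the 5′UTR they were only 34, 17 and 5 and then 17 and 58, or 4.50-fold.

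Footprints on the Nfat5 5′UTR therefore made up a smaller part of the 5′UTR and CDS footprints with KCl. That share was 19.1%, 11.2% and 11.4% in the untreated cultures and 4.78% and 7.42% with KCl, with no overlap between the groups. The median share over measured transcripts was 4.07% ± 0.901 (SD, n = 3) and 4.30% ± 0.449 (SD, n = 2). The share in untreated culture 3 rests on 5 reads in the 5′UTR and that in KCl culture 4 on 17.

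**Figure D1:**
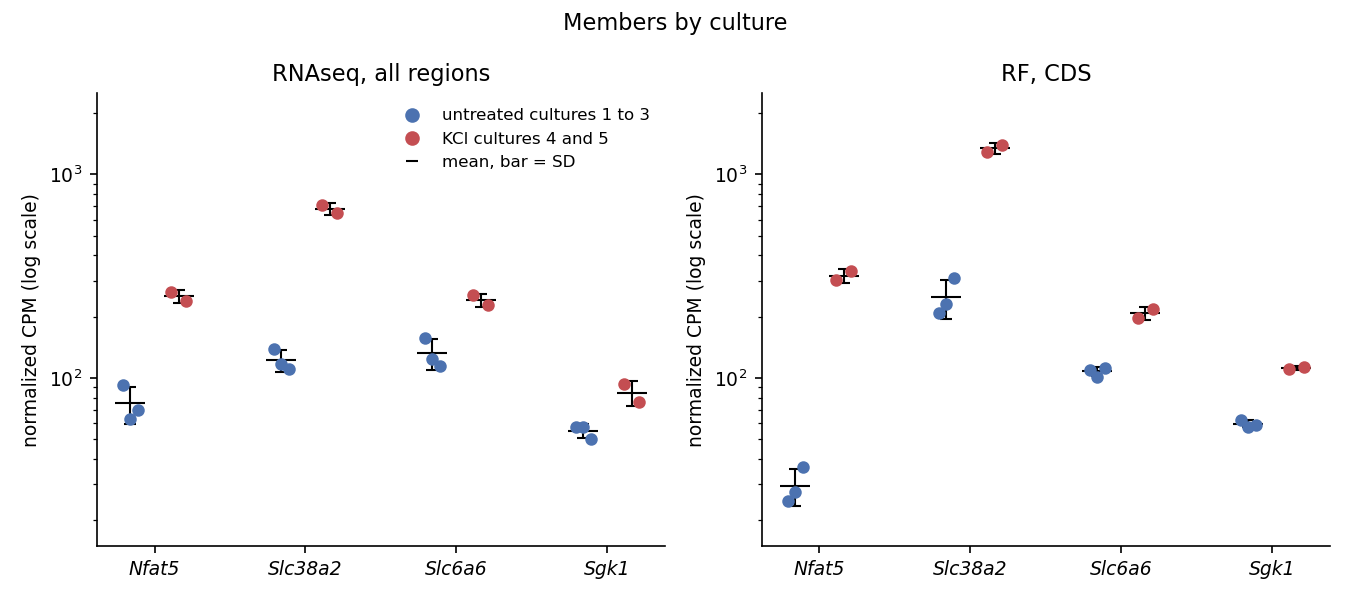
Normalized CPM (log axis) of the leading transcript of 4 members in RNAseq (left) and on the CDS in RF (right); points are cultures, black ticks the mean and bars the SD (n = 3 untreated, n = 2 KCl). KCl cultures lie above all untreated cultures in each panel, with the widest gap for Nfat5 in RF (29.6 to 319 CPM).

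**Figure D2:**
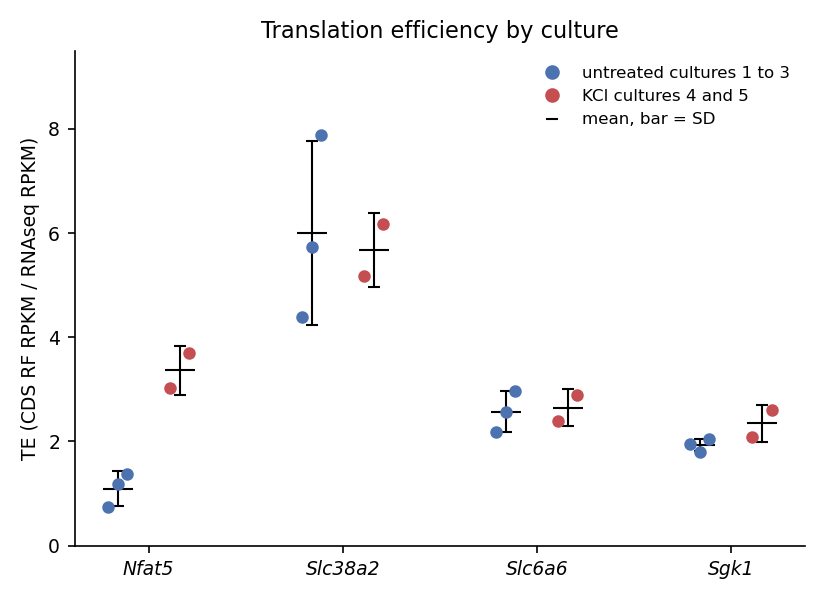
TE, the ratio of CDS RF RPKM to RNAseq RPKM, of the leading transcript of 4 members in each culture; black ticks are means and bars the SD. Nfat5 was 0.734 to 1.38 untreated and 3.03 and 3.69 with KCl, while Slc38a2 and Slc6a6 cultures overlapped.

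Slc38a2 encodes SNAT2, a sodium-coupled system A transporter that brings small neutral amino acids into cells and is induced by hypertonic medium and by amino acid shortage. Its transcript (ENSMUST00000023099, chromosome 15 from 96687392 to 96699730, minus strand) had the largest RNAseq difference of the members. RNAseq was 139, 117 and 111 CPM in the untreated cultures and 711 and 643 with KCl, without overlap. RF on the CDS was 208, 230 and 311 CPM and then 1283 and 1404, also without overlap.

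The log2 fold changes of Slc38a2 were nearly equal, 2.47 (SE 0.13) in RNAseq and 2.48 (SE 0.13) in RF. TE was 4.39, 5.73 and 7.88 untreated and 5.18 and 6.18 with KCl, so the KCl cultures fell inside the untreated range. The log2 fold change of TE was -0.002 with a 95% interval of -0.31 to 0.30, which leaves room for differences of at least that size either way. The fit pools spread over transcripts, so this interval can be narrower than the untreated range of 4.39 to 7.88 would give. Over the alternatives it ran from -0.21 without untreated culture 1 to 0.22 without untreated culture 3. Slc38a2 already had a high TE without KCl: its untreated TE of 6.0 ± 1.76 (SD, n = 3) was at or above that of 96.9% of measured transcripts. Its untreated RF RPKM was at or above that of 86.55% of them, and its RNAseq RPKM of 48.21%.

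By region, RNAseq reads of Slc38a2 on the CDS were 63, 57 and 48 untreated and 242 and 309 with KCl, and on the 3′UTR 261, 208 and 182 and then 1340 and 1279. CPM differed 4.81-fold on the CDS and 5.95-fold on the 3′UTR. RF reads on the 5′UTR were 113, 105 and 18 and then 141 and 294, a 6.80-fold difference in CPM beside 5.38-fold on the CDS. Unlike in Nfat5, the 5′UTR share of footprints was not lower with KCl, at 7.41% ± 1.97 untreated (SD, n = 3) and 8.88% ± 0.0326 with KCl (SD, n = 2).

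**Figure D3:**
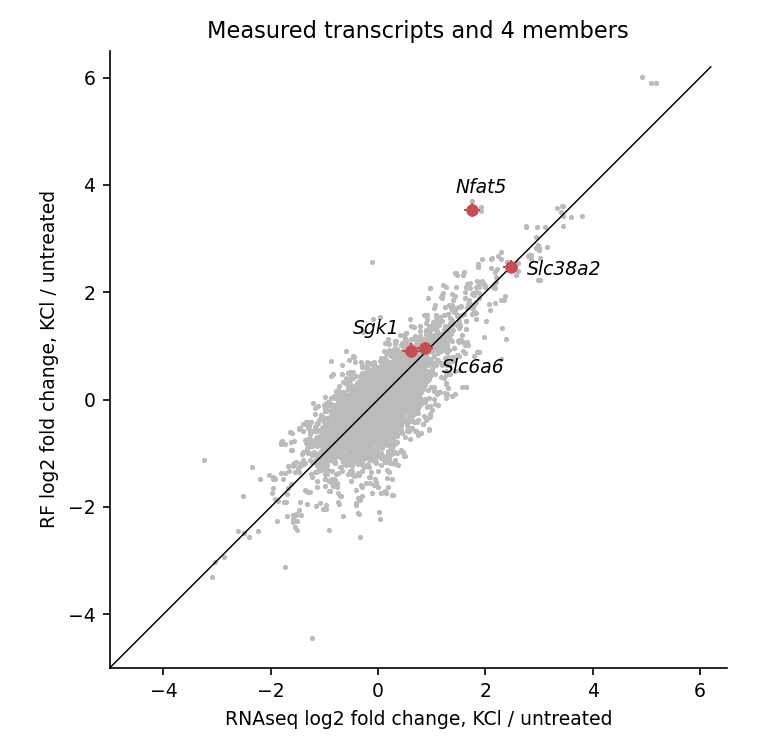
Log2 fold change of KCl over untreated in RNAseq (x) and RF (y) for the 7262 measured transcripts (grey) and the leading transcripts of 4 members (red, bars are SE); the line marks equal change. Nfat5 stands above the line (1.75 and 3.53), Slc38a2 on it (2.47 and 2.48), and Slc6a6 and Sgk1 lie at smaller values near it.

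Slc6a6 encodes the taurine transporter TauT, which loads cells with this osmolyte. Its transcript (ENSMUST00000032185) is on chromosome 6 from 91684053 to 91759066, plus strand. RNAseq was 158, 124 and 114 CPM untreated and 255 and 229 with KCl, a log2 fold change of 0.87 (SE 0.15). RF was 109, 101 and 112 CPM and then 197 and 218, a log2 fold change of 0.97 (SE 0.11). In both assays the KCl cultures stood above every untreated one, at close to the same factor.

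TE of Slc6a6 was 2.18, 2.58 and 2.97 untreated and 2.39 and 2.90 with KCl. These overlap, and the log2 fold change of TE was 0.09 with a 95% interval of -0.31 to 0.49. Over the alternatives it ran from -0.10 with RNAseq CDS reads to 0.24 without KCl culture 4. RNAseq on the CDS was 27.2, 30.4 and 31.1 CPM and then 60.8 and 57.9, and on the 3′UTR 125, 90.1 and 79.3 CPM and then 189 and 162. Both regions were higher in the KCl cultures, 2.01-fold on the CDS and 1.78-fold on the 3′UTR. Among the untreated cultures, culture 1 was the highest on the 3′UTR and the lowest on the CDS.

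Sgk1 encodes serum and glucocorticoid regulated kinase 1, which acts on ion channels and transporters and is induced by cell shrinkage, hormones and neuronal activity. Its leading transcript (ENSMUST00000020145) is on chromosome 10 from 21994666 to 21999903, plus strand, and is 1 of 5 with counts. RNAseq was 57.6, 57.3 and 49.9 CPM untreated and 93.3 and 76.2 with KCl, a log2 fold change of 0.62 (SE 0.18). RF was 62.2, 57.5 and 59.0 CPM and then 110 and 114, a log2 fold change of 0.91 (SE 0.14). The RF groups were tight and well apart, while the KCl cultures differed more from each other in RNAseq.

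TE of Sgk1 was 1.95, 1.80 and 2.05 untreated and 2.09 and 2.60 with KCl, with the lower KCl culture just above the untreated ones. Its log2 fold change of TE was 0.31 with a 95% interval of -0.17 to 0.80. That TE value was 0.48 without KCl culture 4, 0.13 without KCl culture 5, 0.61 with RNAseq reads on the CDS only and 0.07 with those on the 3′UTR only. The RNAseq regions of Sgk1 did not behave alike: CDS CPM overlapped between the groups (31.5, 25.4 and 18.4, then 33.3 and 27.9) and 3′UTR CPM did not (24.9, 29.6 and 29.4, then 58.8 and 46.2). The factors were 1.22 on the CDS and 1.87 on the 3′UTR. Without KCl culture 4 the RNAseq log2 fold change was 0.46, and with CDS reads alone 0.33, and in both cases Sgk1 was no longer past the threshold. Its 5 transcripts, which differ in their first exons, gave 0.62 to 0.67 in RNAseq and 0.91 to 0.92 in RF, and again share most reads.

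**Figure D4:**
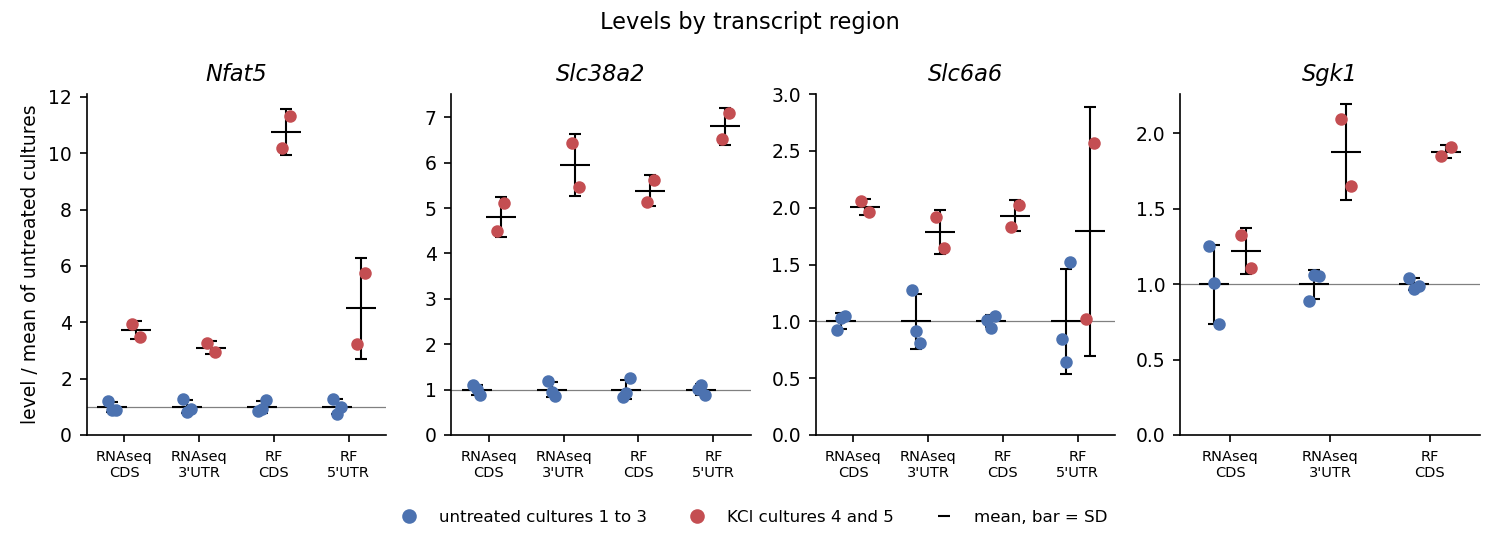
CPM of each culture by region over the mean of the untreated cultures, for RNAseq on the CDS and 3′UTR and RF on the CDS and 5′UTR (no 5′UTR for Sgk1, which had 0 to 6 reads per library); ticks are means, bars the SD, and the vertical scale differs between genes. Nfat5 shows 10.8-fold on the CDS in RF beside 3.72-fold in RNAseq, and only the RNAseq CDS of Sgk1 and the RF 5′UTR of Slc6a6 overlap between groups.

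Slc6a12 encodes BGT1, the betaine and GABA transporter best known as an NFAT5 target in kidney. Its transcript (ENSMUST00000032200, chromosome 6 from 121346618 to 121365775) had 1, 2 and 3 RNAseq reads untreated and 0 and 1 with KCl. RF reads on its CDS were 1, 2 and 2 and then 1 and 0. All libraries are at or under a floor of 3 reads, so no fold is given and a difference was not detectable at this depth.

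Members were counted at an adjusted p threshold of 0.05 (edgeR, Benjamini-Hochberg over all measured transcripts). Of the 4 measured members, 4 were past it and higher in RNAseq and 4 in RF, where 17.9% and 20.8% of measured transcripts were. In TE 1 of 4, Nfat5, was past it and higher, against 1.53% of transcripts. KCl cultures lay above all untreated ones for 4, 4 and 2 of the 4 members in RNAseq, RF and TE, beside 27.6%, 30.2% and 14.2% of transcripts. The median log2 fold change of the members was 1.31 in RNAseq, 1.72 in RF and 0.20 in TE, and that of all measured transcripts was -0.0045, -0.01 and 0.012. Nothing is read from these counts, since the KCl values chose the members.

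Scaling bears on such counts. With normalization by composition (TMM), RNAseq had 1300 transcripts past the threshold and higher and 1095 lower, and RF had 1511 and 1460. With library totals alone these became 1098 and 1483 in RNAseq and 1166 and 1941 in RF, as the median of all transcripts moved to -0.08 in RNAseq and -0.11 in RF. The directions of the 4 members were kept in RNAseq and RF under both scalings.

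Genes whose levels were most like those of Nfat5 were looked up across the 10 libraries, as a description. Wsb1, a WD repeat protein with a SOCS box, came first with a Pearson r of 0.992, followed by the splicing factor gene Prpf38b (0.988), the chromatin regulator gene Arid4b (0.985), Rnf24 (0.985) and Sbno1 (0.982). Wsb1 also matched Nfat5 in size, with log2 fold changes of 1.74 in RNAseq, 3.51 in RF and 1.71 in TE. Of the members, Sgk1 was the most like Nfat5 (0.961, rank 42), before Slc6a6 (0.924, rank 156) and Slc38a2 (0.922, rank 170). The libraries are of 2 assays and 2 conditions from 5 cultures, so these values mostly follow the same group differences.

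The wider osmotic network was described by 6 gene lists, which were drawn up with earlier results of these data known. The adjusted p-values of listed genes are therefore a description and no independent test. The first list held reported NFAT5 regulators and osmosensing kinases, of which 8 of 18 were measured. In RNAseq 3 rose and none fell, and in RF 2 rose and 1 fell. Over all measured transcripts 17.9% were past the threshold and higher and 15.1% lower in RNAseq, and 20.8% and 20.1% in RF. The median log2 fold change of the measured genes was 0.12 in RNAseq and -0.17 in RF. Dhx9, an RNA helicase known to bind NFAT5, rose by 0.80 (SE 0.15, adjusted p = 5.28e-05, edgeR) in RNAseq and by 1.11 (SE 0.08, adjusted p = 1.56e-11) in RF, from 521, 611 and 604 RF CPM untreated to 1266 and 1218. With 3′UTR reads alone its RNAseq value was 1.32. Spag9, the scaffold protein JIP4 of the p38 pathway, rose by 0.79 in RNAseq and 0.88 in RF (adjusted p = 2.59e-05 and 3.51e-08, edgeR). Wnk1, a chloride-sensing kinase, fell by 0.56 in RF (adjusted p = 7.3e-05, edgeR) from 280, 320 and 283 CPM to 206 and 197, and by 0.28 with 5′UTR reads counted too. Mapkapk2, a p38 target kinase, rose by 0.45 in RNAseq (adjusted p = 0.0218, edgeR), a call lost without untreated culture 3, KCl culture 4 or KCl culture 5. Its RF did not rise with it, at -0.29 with overlap between the groups. TE of Mapkapk2 was at -0.77 (adjusted p = 0.0672, edgeR), with both KCl cultures below every untreated culture, and neither value was past the threshold.

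Wnk1 was also the single listed gene past the threshold in TE, where it fell by 0.57 (adjusted p = 0.0243, edgeR), as did 4.27% of all measured transcripts. That call was lost in 8 alternatives, among them leaving out untreated culture 2 or 3 or KCl culture 4 or 5 (adjusted p = 0.0576 to 0.398 over the 8). In TE no gene of the other 5 lists was past the threshold by edgeR or DESeq2. At an unadjusted p under 0.05 in TE there was 1 among the NFATc and calcineurin genes, 1 among the related transporters and 0 in each of the other 3 lists. The p38 kinase gene Mapk14 and the kinase gene Fyn, both reported upstream of NFAT5, were not past the threshold, at 0.11 and 0.14 on the log2 scale in RNAseq and -0.25 and 0.01 in RF.

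Of 17 other reported NFAT5 targets, 6 were measured. In RNAseq 1 rose and 3 fell, and in RF 2 rose and 3 fell, with medians of -0.23 and -0.35. Over all measured transcripts, RNAseq had 17.9% past the threshold and higher and 15.1% lower, and RF 20.8% and 20.1%. Ccl2, a chemokine, fell by 3.09 in RNAseq (adjusted p = 1.53e-14, edgeR), from 121, 184 and 222 CPM untreated to 20.6 and 20.5 with KCl. In RF it fell by 3.31 (adjusted p = 0.0151, edgeR), but without KCl culture 4 or KCl culture 5 that call was lost (adjusted p = 0.117 to 0.156). Tnf, the cytokine, fell by 1.65 in RNAseq and 1.33 in RF (adjusted p = 9.03e-05 and 0.00855, edgeR), the RF call being lost without KCl culture 5 and with DESeq2. Both are made by activated glia and vessel cells. Summed microglia markers were 145 to 167 CPM untreated and 128 to 152 with KCl in RNAseq, and 352 to 389 and 418 to 424 in RF. Vessel and meningeal markers were 544 to 651 and 453 to 518 CPM in RNAseq and 1129 to 1504 and 686 to 837 in RF. The 2 measured markers of these cells went opposite ways in RF, both past the threshold. Col1a1 fell from a mean of 1038 CPM untreated to 386.3 with KCl, and Dcn rose from 292 to 348.3. The lower RF sum therefore follows Col1a1 and is not shared by Dcn. The part of microglia, vessel and meningeal cells in the Ccl2 and Tnf values was not tested.

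The 2 subunits of the large neutral amino acid exchanger, also in the list of targets, went opposite ways. Slc3a2, the heavy chain, rose by 0.53 in RNAseq (adjusted p = 0.00107, edgeR) and by 0.63 in RF (adjusted p = 2.39e-07). Slc7a5, the light chain LAT1, fell by 0.41 in RNAseq (adjusted p = 0.0162, edgeR) and by 0.67 in RF (adjusted p = 0.000583). With 3′UTR reads alone the Slc3a2 RNAseq value was 2.37 (adjusted p = 0.00732, edgeR). With CDS reads alone it was 0.56 (adjusted p = 0.000546, edgeR), so the larger 3′UTR value is not shared by the CDS. The Slc3a2 RNAseq call was lost without KCl culture 5 (adjusted p = 0.0961), as was the Slc7a5 RF call (adjusted p = 0.0781). The Slc7a5 RNAseq call was lost without untreated culture 2 or KCl culture 4, among 5 alternatives (adjusted p = 0.0535 to 0.251).

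Of 14 genes for the making and breakdown of osmolytes, 4 were measured. In RNAseq none rose and 1 fell, where 17.9% of all measured transcripts were past the threshold and higher and 15.1% lower. In RF none was past the threshold by edgeR or DESeq2, and 0 were at an unadjusted p under 0.05. The medians of the list were -0.13 and -0.20. Gatm, the first enzyme of creatine synthesis, fell by 0.63 in RNAseq (adjusted p = 0.00977, edgeR), from 63.8, 57.3 and 67.9 CPM untreated to 44.4 and 37.4 with KCl, a call lost without KCl culture 5. Gamt, the enzyme of the next step, was at -0.13 in RNAseq and 0.13 in RF, not past the threshold. Cdo1, which starts the route from cysteine to taurine, was at -0.12 and -0.41, also not past it.

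Of 17 related transporters and reductases, 5 were measured and Mrps6 alone was past the threshold, in RF (0.29, adjusted p = 0.041, edgeR, where 20.8% of all measured transcripts were higher), a call lost in 10 alternatives, among them leaving out untreated culture 1 or 3 or KCl culture 4 or 5. Mrps6, a mitochondrial ribosomal protein gene, overlaps Slc5a3 in the genome, so the origin of its reads is uncertain. Slc38a1 and Slc38a3, close relatives of Slc38a2, were not past the threshold, with log2 fold changes of 0.03 and -0.19 in RNAseq and 0.03 and 0.04 in RF. In RNAseq no gene of this list was past it by edgeR or DESeq2, with 1 at an unadjusted p under 0.05. The medians of the list were 0.21 in RNAseq and 0.03 in RF.

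Of 14 NFATc and calcineurin genes, 6 were measured, namely Ppp3ca, Ppp3cb, Ppp3r1, Rcan1, Rcan3 and Cabin1. No NFATc factor was among them, so the values below are of calcineurin genes and its regulators only. In RNAseq none was past the threshold by edgeR or DESeq2, and 2 were at an unadjusted p under 0.05. In RF 3 fell by edgeR, beside 20.1% of all measured transcripts, and none by DESeq2. The medians of the list were -0.20 and -0.36. These were Rcan3, a calcineurin regulator (-0.90, adjusted p = 0.0277), the calcineurin subunit gene Ppp3cb (-0.36, adjusted p = 0.0301) and the calcineurin inhibitor gene Cabin1 (-0.35, adjusted p = 0.0498). Each was lost without untreated culture 3 or KCl culture 4, Cabin1 also without untreated culture 1, Rcan3 without untreated culture 2, and Ppp3cb and Rcan3 without KCl culture 5, in 5 to 9 alternatives each.

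Of 15 genes listed for SGK relatives, activators and substrates, 9 were measured, and no SGK relative was among them. In RNAseq 4 rose and 1 fell, and in RF 2 rose and 3 fell, with medians of 0.06 and 0.04. The background was 17.9% higher and 15.1% lower in RNAseq and 20.8% and 20.1% in RF. Per1, which was in the list but is a gene of the circadian clock, rose by 1.04 in RNAseq and 0.99 in RF (adjusted p = 1.57e-05 and 3.48e-06, edgeR). Foxo3, a transcription factor that SGK1 phosphorylates, rose by 0.57 in RNAseq and 0.66 in RF (adjusted p = 0.00127 and 0.000607, edgeR), the RNAseq call being lost without KCl culture 4. The kinase complex genes Mtor and Mapkap1, whose TORC2 complex activates SGK1, fell by 0.60 and 0.83 in RF (adjusted p = 0.000387 and 0.00267, edgeR), and the Mapkap1 call was lost without KCl culture 5. Pdpk1, another kinase that activates SGK1, rose by 0.39 in RNAseq (adjusted p = 0.0345, edgeR) and was at 0.17 in RF, not past the threshold. Nedd4, a ubiquitin ligase, fell by 0.45 in RNAseq (adjusted p = 0.00566, edgeR), lost without KCl culture 5, while the SGK1 target Nedd4l was not past the threshold (0.06 in RNAseq and 0.02 in RF). Ndrg2 rose by 0.45 in RNAseq (adjusted p = 0.00483, edgeR) but not with CDS reads alone (adjusted p = 0.906).

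**Figure D5:**
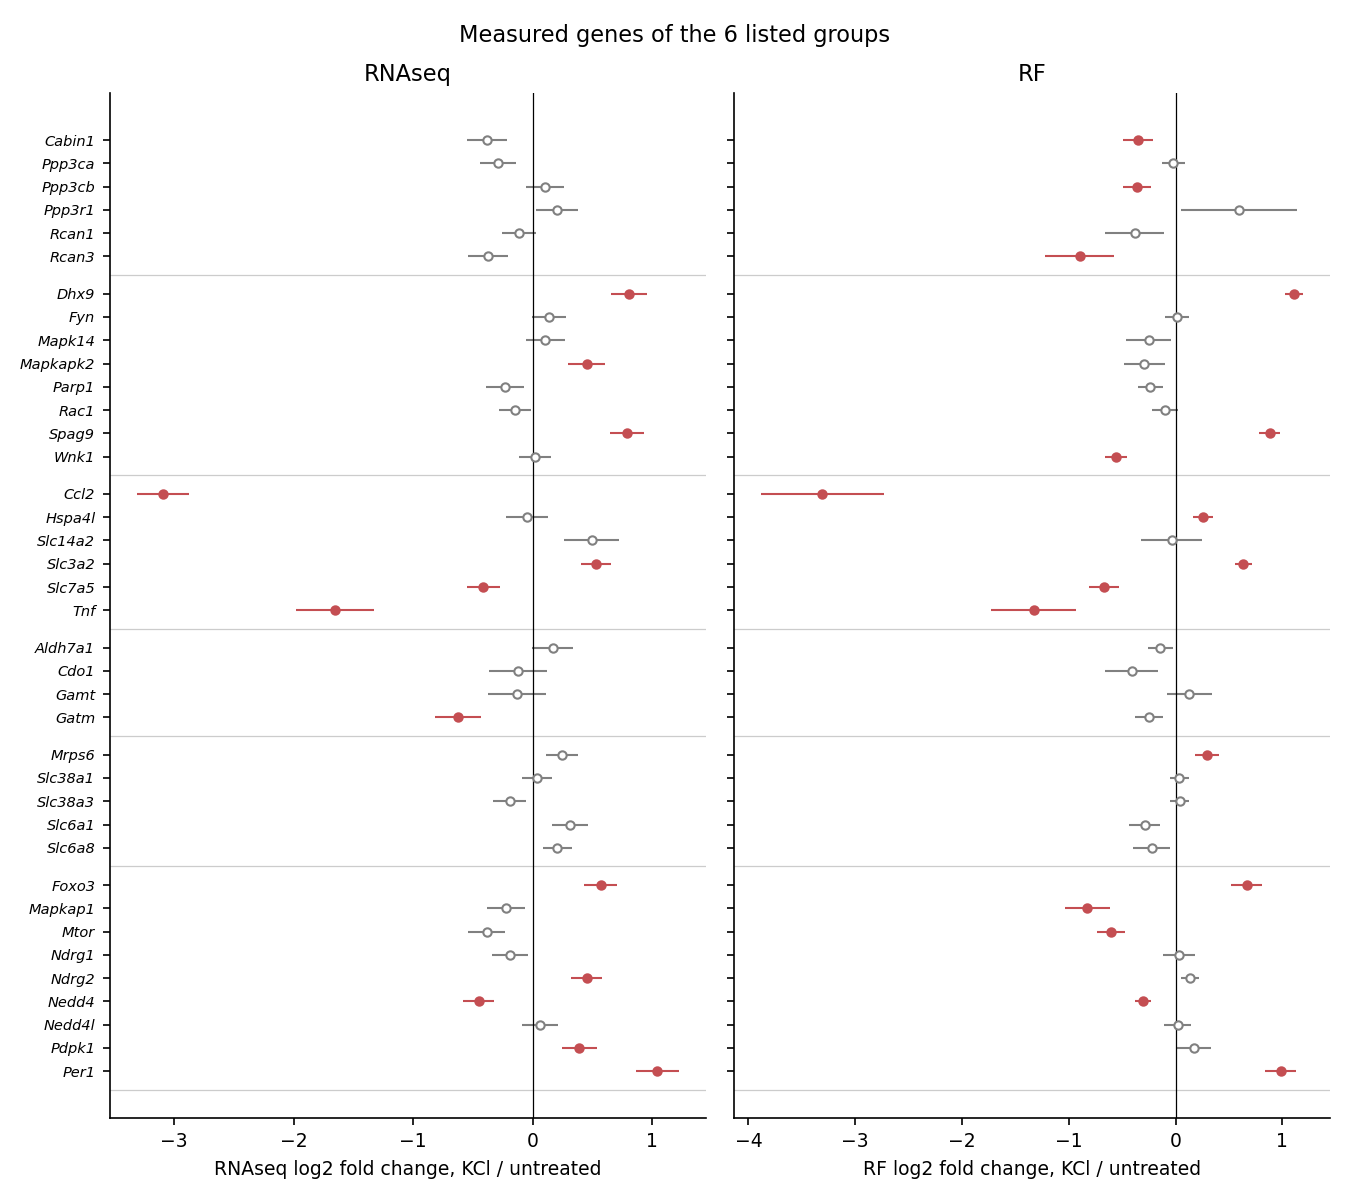
Log2 fold change of KCl over untreated in RNAseq (left) and RF (right) for the measured genes of the 6 lists. From top to bottom these are NFATc and calcineurin (no NFATc factor was measured), NFAT5 regulators, other NFAT5 targets, osmolyte synthesis and breakdown, related transporters, and SGK genes. Bars are SE and filled red points passed the threshold. Per1 is the highest point in RNAseq (1.04) and Dhx9 in RF (1.11), and Ccl2 is the lowest in both (-3.09 and -3.31).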

How the data were processed

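Counts were taken as the authors deposited them: reads per region of each transcript, without normalization. Per the labels and methods, reads were trimmed (Trimmomatic 0.32), cleared of rRNA (STAR 2.3.1z8), aligned to mm10 transcripts (Bowtie2 2.2.2) with reads kept on every transcript they match, and counted (bedtools 2.20.1). Isoforms therefore share reads. Regions are marked by letter. The letters for 5′UTR, CDS and 3′UTR were checked by the rank correlation of read share with annotated length (0.52, 0.65 and 0.67 across transcripts). A further letter, which the sources do not name, held 5.82% to 6.16% of reads in the RNAseq libraries. It was left out of the values by region but is in the RNAseq sum over all regions, and so in TE.

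Of 22534 transcripts, 22172 matched GENCODE on GRCm38. Fits used edgeR 4.0.16 (TMM within assay, robust quasi-likelihood, Benjamini-Hochberg over 7262 transcripts), all regions for RNAseq and the CDS for RF. TE was the interaction of assay and treatment with the culture as a block, since both libraries of a culture came from the same lysate. SE is the log2 fold change over the root of F, an approximation. Normalized CPM uses measured reads and TMM. RPKM uses library totals. Named genes are the members, and in each list up to 4 genes past the threshold with the largest change in each assay. Likeness to Nfat5 was Pearson's r of log2 normalized CPM (0.5 added), each assay centred on its untreated mean, and the 5 highest genes were named. Other genes were named after their values were seen. Alternatives were DESeq2 1.42.0, other scalings, filters, regions and gene sums, and leaving out each culture. RNAseq with 3′UTR reads only was added after seeing the data. Fits were tested on simulated data. Members and lists were chosen with earlier results of these data known. The labels do not say that cultures came from separate litters, so p-values measure the spread between these cultures, and intervals and floors cover no more than that or counting error. The fits pool that spread over transcripts, so the TE interval of a gene can be narrower than its own cultures would give. A listed gene that is not reported here was left out of the lists, their counts and the plot of them.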

Additional observations from a re-analysis of the deposited data

How the results depend on the processing

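As a description, since the KCl values chose the members, the log2 fold change over the alternatives was 1.57 to 1.94 in RNAseq, 3.38 to 3.61 in RF and 1.45 to 1.92 in TE for Nfat5, 2.31 to 2.57 in RNAseq and 2.36 to 2.62 in RF for Slc38a2, 0.76 to 1.05 and 0.86 to 1.04 for Slc6a6, and 0.33 to 0.84 and 0.81 to 0.98 for Sgk1. Counts of transcripts past the threshold moved too. In RNAseq (2395) they were 4232 with edgeR's own filter, 4166 without a filter, 1427 with gene sums, 1414 with 1 transcript per gene and 1532 with CDS reads, and 1638 to 2637 with 1 culture left out. In RF (2971) they were 5330, 5412, 1671 and 1706 in the same order, and 1698 to 3233 with 1 culture left out. In TE (421) they were 172 with DESeq2, 238 with gene sums, 258 with 1 transcript per gene and 266 with RNAseq CDS reads, and 70 to 547 with 1 culture left out, the lowest without KCl culture 5 (70) and KCl culture 4 (143). Gene sums and 1 transcript per gene test fewer features; the cause of the other shifts was not tested. Without the replicate block for culture, 420 were past it in TE. Untreated TE of Sgk1 was 1.93, and 2.08 with gene sums. Of the calls that rank among the 4 largest changes of a list in an assay, 343 values under the alternatives kept their side of the threshold and direction, 62 were no longer past it and none reversed. The alternatives were not run for the calls of Hspa4l and Nedd4 in RF and Pdpk1 in RNAseq. TE rests on 2 KCl cultures and on RF libraries of 1463654 reads and up.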
